A study of Rattus norvegicus with 8 samples.

Results

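The genes described here encode the enzymes that cut extracellular matrix and cell-surface proteins, with the inhibitors and relatives of those enzymes. They were chosen by symbol alone, as every matrix metalloproteinase (Mmp), tissue inhibitor of metalloproteinases (Timp), ADAM, ADAMTS and ADAMTS-like gene of the authors' deposited table. The choice gave 55 of 15115 genes: 16 MMPs, 4 TIMPs, 13 ADAMs, 17 ADAMTS proteases and 5 ADAMTS-like genes. All samples were livers of wild-type male Fischer 344 rats labelled as 1 year old, from a study that ran for 60 weeks. The CDAA group (4 rats sequenced of 6 in the study) ate a choline-deficient, amino acid-defined diet used to bring about hepatocellular carcinoma. The CDAA_PTS group (4 of 6) ate that diet with the stilbenoid pterostilbene at 1.34 g per kg, after 3 weeks of a choline-sufficient diet that also held the compound, while CDAA rats spent those 3 weeks on the choline-sufficient diet alone. No choline-sufficient group was analysed here, so both groups share the choline-deficient diet. The livers yielded tumour, nodule or normal pieces, and the sources used here do not say which of these each library holds. The p-values cover the spread between libraries of a group only as the authors' models estimated it.

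MMPs are zinc-dependent proteases that are made with a propeptide which keeps them inactive until it is removed, and TIMPs bind the active enzymes. ADAMs sit in the cell membrane and release the outer parts of other membrane proteins, such as growth factors and cytokine receptors. ADAMTS proteases are secreted and cut proteoglycans, procollagens or von Willebrand factor, while ADAMTS-like proteins resemble them but lack the protease domain. In injured liver, stellate cells and macrophages are known sources of several of these enzymes and inhibitors, and their balance bears on how scar matrix builds up and is removed.

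With pterostilbene, 3 of the 55 genes were lower and none was higher at an edgeR adjusted p under 0.05 per the authors' deposited table. The genes that fell were Mmp12, the elastase of macrophages; Mmp20, known as an enzyme of tooth enamel; and Adamts6, a secreted protease of the ADAMTS family. The other 52 did not pass, among them all 4 TIMPs and all 13 ADAMs. The 3 calls are 5.45% of the genes, beside 3.41% of all genes called in the authors' deposited table; for calls lower with pterostilbene the background was 1.95%, and for calls higher it was 1.47%. A count of 3 is too small to be read as a shift of the families as a whole. At an unadjusted edgeR p under 0.05, 7 of the 55 were lower (12.7%, against 7.86% of all genes) and 3 were higher (5.45%, against 6.76%), or 10 in all (18.2%, against 14.6%), per the authors' deposited table. The median log2 fold change of the 55 was -0.03, beside 0.01 over all genes, and 31 of 55 lay below 0 per the authors' deposited table. DESeq2 called the same 3 genes out of 46 with an adjusted p (background 4.46%), and Cuffdiff called 2 out of 37 it tested, Mmp12 and Mmp27 (background 5.51%), per the authors' deposited table.

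**Figure D1:**
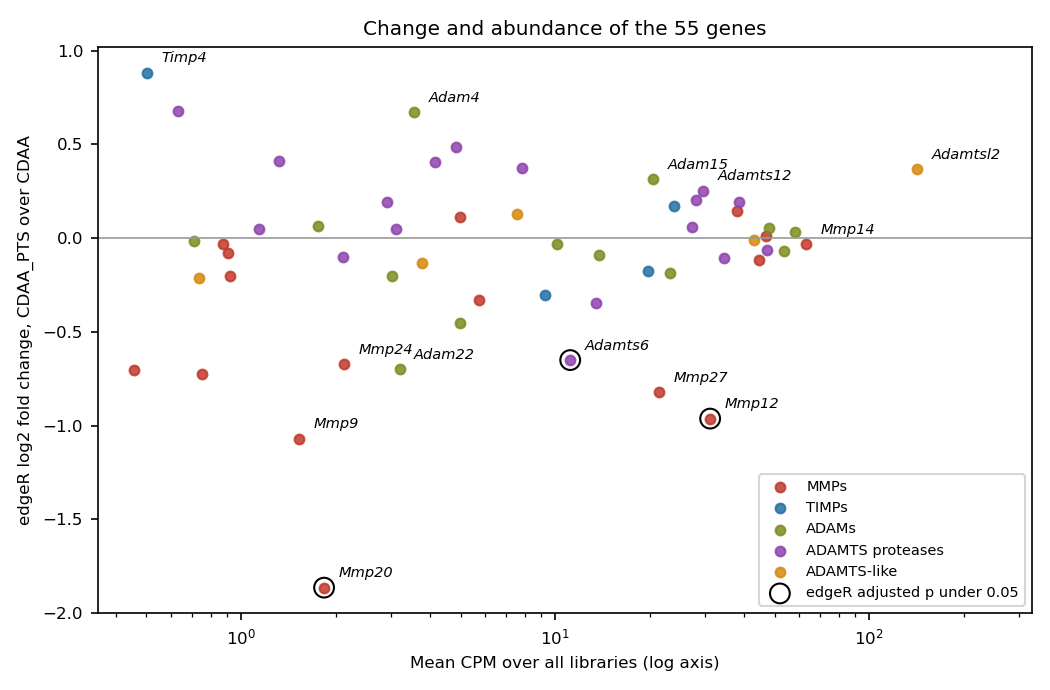
Each point is one gene, placed by its mean CPM over all libraries (log axis) and its edgeR log2 fold change (CDAA_PTS over CDAA), coloured by family; rings mark an edgeR adjusted p under 0.05. The ringed genes are Mmp12 at -0.96, Adamts6 at -0.65 and Mmp20 at -1.86, and no gene above 0 is ringed.

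Levels are compared between genes as FPKM, which corrects for length, and each value is one figure per group with no spread between rats. In CDAA livers the 55 genes ran from 0.0990 FPKM for Adamts17 to 29.1 FPKM for Adamtsl2, with a median of 1.61 FPKM, per the authors' deposited table. In CDAA_PTS livers they ran from 0.123 FPKM for Mmp17 to 38.9 FPKM for Adamtsl2, with a median of 1.52 FPKM, per the authors' deposited table. Thus 13 genes reached 10 FPKM in CDAA and 12 in CDAA_PTS, and 23 were under 1 FPKM in each group of the authors' deposited table. The order in CDAA was led by Adamtsl2, Mmp14, Mmp12, Mmp19, Adam9, Timp1, Adam10, Mmp27 and Timp2. Mmp12 was the third highest in CDAA at 22.7 FPKM, and in CDAA_PTS, at 11.7 FPKM, it lay below Mmp2, Adam10 and Timp2 per the authors' deposited table. Whether neighbours in this order differ beyond the spread between rats cannot be told from group values.

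**Figure D2:**
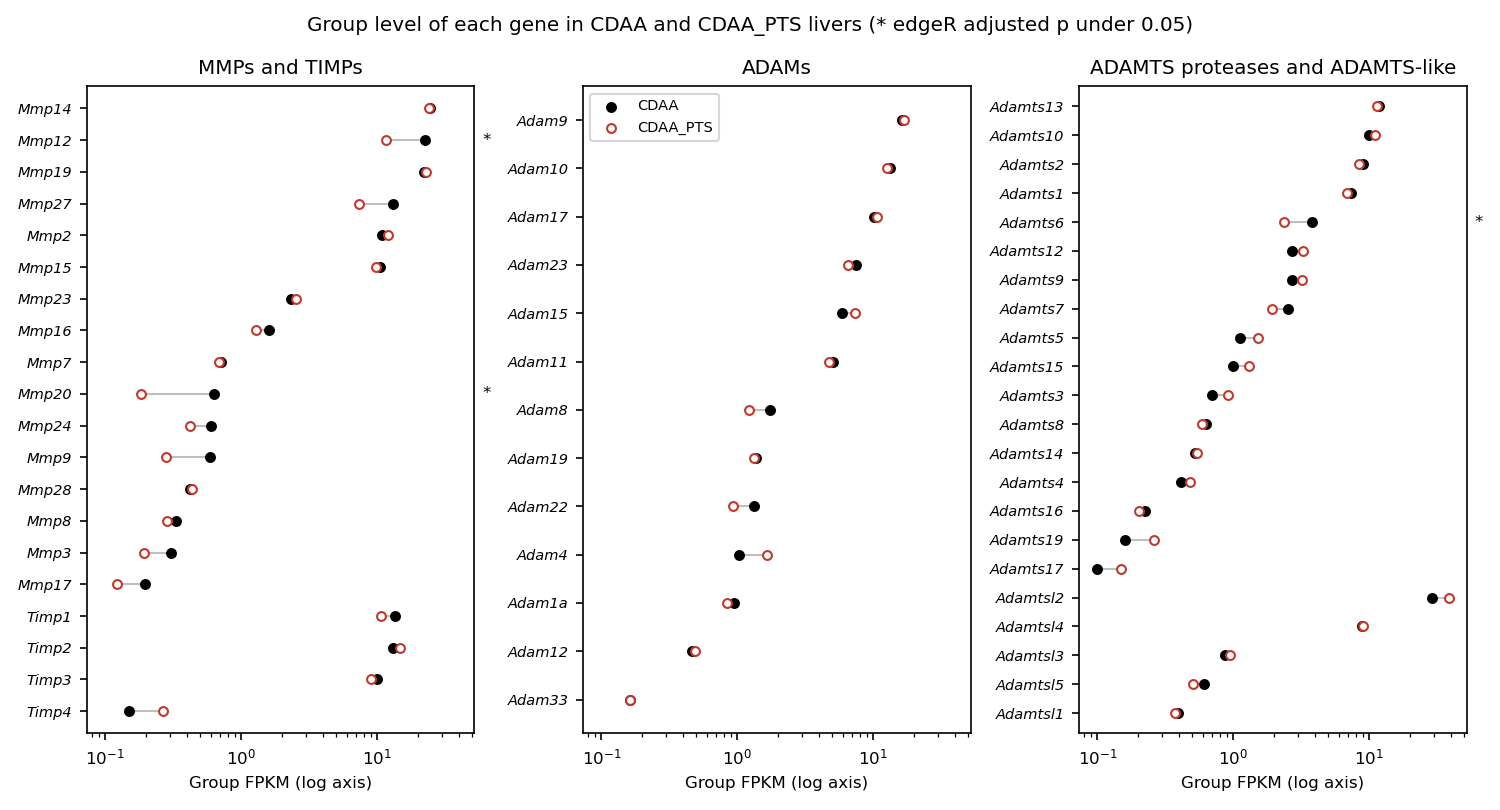
Group FPKM of each gene (log axis) in CDAA (filled) and CDAA_PTS (open) livers, ordered by the CDAA level within each family; an asterisk marks an edgeR adjusted p under 0.05. Most pairs of points nearly coincide, while Mmp12 moves from 22.7 to 11.7 FPKM and Mmp20 from 0.628 to 0.183 FPKM.

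Mmp12 and Mmp20 lie in one run of MMP genes on chromosome 8 of rn6. The run holds 6 of the 16 MMPs (Mmp12, Mmp3, Mmp8, Mmp27, Mmp20 and Mmp7, in that order), spans 294 kb and has no other gene of the authors' deposited table inside it. All 6 had edgeR log2 fold changes below 0 in the authors' deposited table, with a median of -0.76. The 10 MMPs elsewhere in the genome had a median of -0.10, with 7 below 0 and none called, per the authors' deposited table. No test of the run as a unit was made. The windows around the gene starts (250 bases before to 50 after, RefSeq, GRCr8, plus strand) are shown for 4 of them, the first 3 because they hold the letters of an AP-1 element, the site of Jun and Fos proteins, and Mmp20 as the called gene that has none. Capitals mark TGAGTCA.
Mmp12, chr8:12866402-12866701: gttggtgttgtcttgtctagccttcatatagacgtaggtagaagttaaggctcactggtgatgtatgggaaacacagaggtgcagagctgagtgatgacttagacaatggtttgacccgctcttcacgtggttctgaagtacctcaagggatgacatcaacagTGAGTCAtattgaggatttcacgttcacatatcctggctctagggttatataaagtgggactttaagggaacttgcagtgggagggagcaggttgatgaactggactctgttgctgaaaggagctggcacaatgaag
Mmp3, chr8:12925031-12925330: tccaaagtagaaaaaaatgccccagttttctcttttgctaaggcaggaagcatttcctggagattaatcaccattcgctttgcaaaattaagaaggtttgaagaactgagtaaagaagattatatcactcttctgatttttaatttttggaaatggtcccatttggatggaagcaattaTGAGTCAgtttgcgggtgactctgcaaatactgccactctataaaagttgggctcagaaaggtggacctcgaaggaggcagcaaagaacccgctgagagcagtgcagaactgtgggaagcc
Mmp7, chr8:13132793-13133092: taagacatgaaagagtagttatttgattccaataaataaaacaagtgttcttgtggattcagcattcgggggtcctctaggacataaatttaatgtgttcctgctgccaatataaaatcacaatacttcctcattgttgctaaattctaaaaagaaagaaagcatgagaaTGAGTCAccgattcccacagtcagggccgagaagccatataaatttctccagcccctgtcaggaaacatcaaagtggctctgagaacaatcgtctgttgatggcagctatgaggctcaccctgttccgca
Mmp20, chr8:13074029-13074328: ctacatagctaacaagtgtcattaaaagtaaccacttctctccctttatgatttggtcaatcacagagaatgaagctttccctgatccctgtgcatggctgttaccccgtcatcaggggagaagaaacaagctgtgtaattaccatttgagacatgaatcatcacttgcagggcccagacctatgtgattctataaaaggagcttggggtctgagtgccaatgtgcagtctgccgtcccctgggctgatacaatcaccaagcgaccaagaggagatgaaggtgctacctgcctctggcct

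The search used TGACTCA and its reverse complement TGAGTCA, so that both strands were covered, and it found the letters in 3 of the 6 windows of the run. They begin 87 bases before the start of Mmp12, 71 before that of Mmp3 and 80 before that of Mmp7. RefSeq windows were found for 40 of the 55 genes, 50 windows in all, and the only other one with the letters was that of Adam19, 169 bases before its start. Among all 33469 windows, 4.63% hold them. The letters TATAAA, on either strand, occur in 5 of the 6 windows of the run, against 14.2% of all windows, and Mmp27 is the one without. A match in letters is a description of the window. Of the 4 genes with the AP-1 letters, Mmp12 was called lower, and Mmp3, Mmp7 and Adam19 were not called, at edgeR log2 fold changes of -0.70 (adjusted p 0.66), -0.03 and -0.03 per the authors' deposited table.

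Mmp12 (ENSRNOG00000030187, chromosome 8, 5606591 to 5616493) cuts elastin and other matrix proteins. The authors' deposited table gives it 22.7 FPKM in CDAA and 11.7 FPKM in CDAA_PTS, a level 1.95 times as high without pterostilbene. It fell by 0.96 on the edgeR log2 scale, with an adjusted p of 0.00014, per the authors' deposited table. DESeq2 gave a moderated value of -0.79 (SE 0.16, 95% normal interval -1.11 to -0.47, adjusted p 0.00020), and Cuffdiff gave -0.96 with a q of 0.0019, the smallest q that block holds, per the authors' deposited table. Mmp12 was the only one of the 55 called by all 3 tools.

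Mmp20 (ENSRNOG00000021896, chromosome 8, 5833358 to 5875232) was a gene of low counts. Its level was 0.628 FPKM in CDAA and 0.183 FPKM in CDAA_PTS, from a mean of 1.84 CPM, per the authors' deposited table. It fell by 1.86 in edgeR (adjusted p 0.015), and DESeq2, which moderates it, gave -0.74 (SE 0.21, adjusted p 0.015), per the authors' deposited table. Cuffdiff gave a log2 ratio of -1.78 and did not test it, so the call rests on edgeR and DESeq2 of the authors' deposited table.

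Mmp27 lies between Mmp8 and Mmp20 and encodes a little-studied member of the family. It stood at 13.3 FPKM in CDAA and 7.41 FPKM in CDAA_PTS per the authors' deposited table. The edgeR log2 fold change of -0.82 did not pass (adjusted p 0.29), and neither did the DESeq2 value of -0.45 with an SE of 0.21 (adjusted p 0.25), whereas Cuffdiff called it at a q of 0.0019 per the authors' deposited table. In the authors' deposited table the edgeR values of Mmp27 and Mmp12 were -0.82 and -0.96, whereas their DESeq2 values were -0.45 (SE 0.21) and -0.79 (SE 0.16). The remaining genes of the run were low. Mmp3, a stromelysin that also activates other MMPs, stood at 0.303 FPKM in CDAA and 0.192 FPKM in CDAA_PTS (edgeR log2 fold change -0.70, adjusted p 0.66, authors' deposited table). Mmp8, a collagenase stored by neutrophils, stood at 0.333 and 0.283 FPKM (edgeR log2 fold change -0.20, adjusted p 0.95), and Mmp7, matrilysin, at 0.708 and 0.693 FPKM, in CDAA and CDAA_PTS of the authors' deposited table. The nearest genes on either side, Dcun1d5 and Tmem123, stood at edgeR log2 fold changes of -0.15 and 0.01 (adjusted p 0.63 and 1) per the authors' deposited table.

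**Figure D3:**
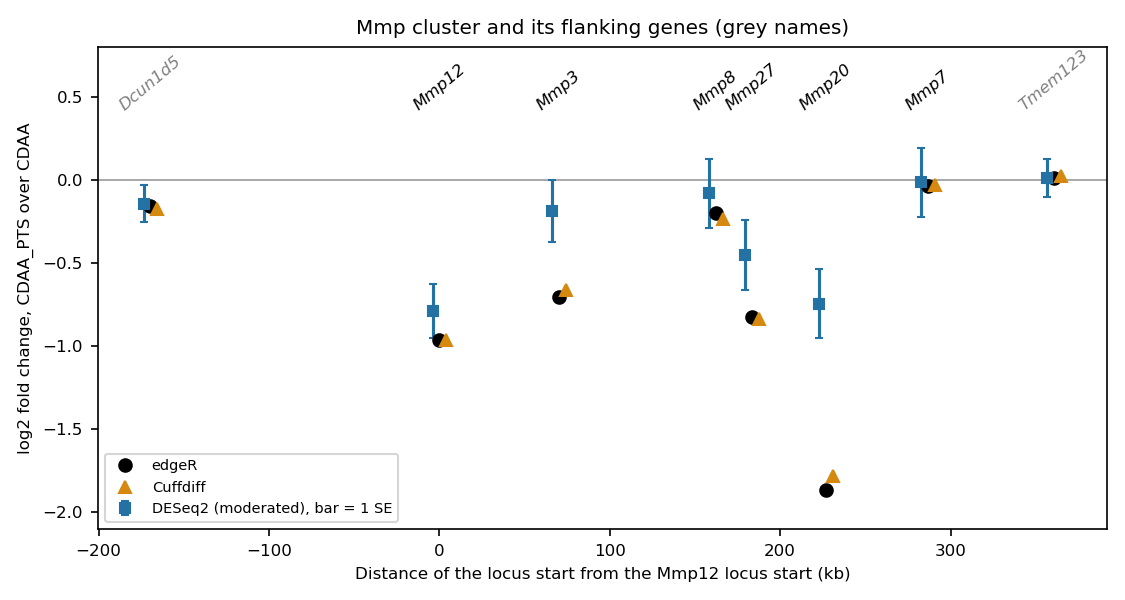
Log2 fold change (CDAA_PTS over CDAA) of the 6 MMP genes of the chromosome 8 run and the nearest gene on each side, against the distance of each locus start from that of Mmp12 in kb; circles are edgeR, triangles Cuffdiff and squares the moderated DESeq2 value with 1 SE. All 6 lie below 0, with Mmp12 near -0.96, Mmp27 near -0.82 and Mmp20 near -1.86 in edgeR, and the flanking genes near 0.

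Mmp12 is known from macrophages, and macrophage markers are therefore given beside it. Of 8 measured markers, 1 fell and 7 did not pass, with a median edgeR log2 fold change of -0.10 and a summed level of 226 FPKM in CDAA and 203 FPKM in CDAA_PTS per the authors' deposited table. The one that fell was Gpnmb, a glycoprotein of lipid-laden macrophages, at 68.1 FPKM in CDAA and 49.7 FPKM in CDAA_PTS (edgeR log2 fold change -0.46, adjusted p 0.013, authors' deposited table). The pan-macrophage Cd68 stood at -0.32 (adjusted p 0.23) and the Kupffer cell lectin Clec4f at 0.01 (adjusted p 1) in edgeR of the authors' deposited table. Csf1r, Adgre1 and Trem2 stood at -0.22, -0.13 and -0.08 in edgeR (adjusted p 0.36, 0.77 and 0.97). Cd163 and Marco stood at 0.12 and 0.16 (adjusted p 0.87 and 0.80), so that 5 of the 8 lay below 0 and 3 above. None of the 8 was listed at 0. Their part in the fall of Mmp12 was not tested, and in whole liver fewer cells of a type and less RNA per cell cannot be told apart.

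The gelatinases cut denatured collagen and basement membrane. Mmp9, made by neutrophils and macrophages among others, stood at 0.589 FPKM in CDAA and 0.281 FPKM in CDAA_PTS per the authors' deposited table. Its edgeR log2 fold change of -1.07 missed the threshold (adjusted p 0.053), as did the DESeq2 value of -0.60 with an SE of 0.21 (adjusted p 0.077), per the authors' deposited table. The call depended on the filter: with genes under a mean of 1 CPM left out, the edgeR p of the authors' deposited table gave Mmp9 an adjusted p of 0.048. Of 8 neutrophil markers 4 were measured, and none of these passed in edgeR or had an unadjusted edgeR p under 0.05. DESeq2 gave 1 of the 4 no adjusted p, Cuffdiff did not test 2, and neither tool called any. Csf3r, S100a8, Cxcr2 and S100a9 stood at -0.66, -0.15, -0.10 and 0.11 in edgeR (adjusted p 0.39, 0.94, 0.98 and 0.96). Their summed levels, mostly S100a8 and S100a9, were 11.4 FPKM in CDAA and 10.9 FPKM in CDAA_PTS in the authors' deposited table. The part of these markers in the Mmp9 value was not tested. Mmp2, the gelatinase of stellate cells and fibroblasts, was far more abundant than Mmp9, at 11.0 FPKM in CDAA and 12.2 FPKM in CDAA_PTS of the authors' deposited table. Its edgeR log2 fold change was 0.14 (adjusted p 0.89), with a DESeq2 interval of -0.27 to 0.47, per the authors' deposited table.

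The class of membrane-bound MMPs used here holds 5 genes: Mmp14, Mmp15, Mmp16, Mmp17 and Mmp24. None of the 5 passed by any of the 3 tools, and 1 had an unadjusted edgeR p under 0.05. All 5 had values below 0, with a median edgeR log2 fold change of -0.33 per the authors' deposited table. Mmp23 is also anchored in the membrane but was classed with the other MMPs. Its edgeR log2 fold change lay above 0, at 0.11, so the shared direction holds only for the class as drawn here. Mmp14, which activates the precursor of Mmp2 at the cell surface, was the most abundant MMP, at 24.7 FPKM in CDAA and 24.2 FPKM in CDAA_PTS of the authors' deposited table. Its DESeq2 log2 fold change was -0.03 with an SE of 0.13 (edgeR adjusted p 0.98), an interval of -0.28 to 0.23, per the authors' deposited table. Mmp15, its close relative, stood at 10.6 and 9.84 FPKM (edgeR log2 fold change -0.12, adjusted p 0.75) in CDAA and CDAA_PTS of the authors' deposited table. Mmp24 stood at 0.607 and 0.422 FPKM, with an edgeR log2 fold change of -0.67 and an unadjusted p of 0.028 that did not hold after adjustment (0.26), per the authors' deposited table. Mmp16 and Mmp17 stood at edgeR log2 fold changes of -0.33 and -0.73 (adjusted p 0.46 and 0.50), Mmp17 from a mean of 0.753 CPM, per the authors' deposited table.

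Outside these classes, Mmp19, a broadly expressed enzyme, stood at 22.5 FPKM in CDAA and 22.9 FPKM in CDAA_PTS (edgeR log2 fold change 0.01, adjusted p 1, authors' deposited table). Mmp19 and Mmp12 thus had nearly the same level in CDAA, and in CDAA_PTS Mmp19 was the higher of the pair. Mmp23 stood at 0.11 and Mmp28, known as epilysin, at -0.08 (edgeR log2 fold changes, authors' deposited table), and Cuffdiff gives Mmp28 the other sign, at 0.06. Summed over the 16 MMPs, the level was 113 FPKM in CDAA and 94.6 FPKM in CDAA_PTS of the authors' deposited table. The 6 genes of the chromosome 8 run made up nearly all of that gap, with 38.0 and 20.4 FPKM, while the 10 others summed to 74.5 and 74.2 FPKM, in CDAA and CDAA_PTS of the authors' deposited table. Within the run the gap came almost wholly from Mmp12 (22.7 and 11.7 FPKM) and Mmp27 (13.3 and 7.41 FPKM). Mmp27 was called by Cuffdiff alone. Mmp3, Mmp8, Mmp20 and Mmp7 were each under 1 FPKM in both groups. In all, 13 of the 16 MMPs had an edgeR log2 fold change below 0 in the authors' deposited table, where 49.0% of all genes did.

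The TIMPs, which inhibit MMPs and in part ADAMs and ADAMTS proteases, did not pass in any of 4 cases in edgeR, and none had an unadjusted p under 0.05 or a call by the other tools. Timp1, an inhibitor that rises in fibrotic liver, stood at 13.5 FPKM in CDAA and 10.7 FPKM in CDAA_PTS of the authors' deposited table. The edgeR log2 fold change of Timp1 was -0.30 (adjusted p 0.47), and the DESeq2 interval ran from -0.56 to 0.06, per the authors' deposited table. Timp2, which also takes part in the activation of Mmp2, stood at 13.2 and 14.9 FPKM (edgeR log2 fold change 0.17, adjusted p 0.79), in CDAA and CDAA_PTS of the authors' deposited table. Timp3, which binds to the matrix and inhibits Adam17, stood at 9.97 and 9.01 FPKM (edgeR log2 fold change -0.18, adjusted p 0.74) in the same order per the authors' deposited table. Timp4 was low, at 0.149 and 0.267 FPKM, and its edgeR log2 fold change of 0.88 came with an adjusted p of 0.70 per the authors' deposited table. The loci of Timp1, Timp2 and Timp3 overlap those of other genes (Araf and LOC102555453, Cep295nl, and Syn3) in the authors' deposited table, and reads of overlapping genes may be mixed, since the strand setting is not stated. The ratio of summed MMP to summed TIMP level was 3.05 in CDAA and 2.71 in CDAA_PTS of the authors' deposited table, with no error to set beside it.

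None of the 13 ADAMs was called by any of the 3 tools. At an unadjusted edgeR p under 0.05, 2 were higher and 1 lower (23.1% together, against 14.6% of all genes), per the authors' deposited table. The abundant sheddases lay close together in both groups. Adam9 stood at 16.5 FPKM in CDAA and 17.0 FPKM in CDAA_PTS (DESeq2 log2 fold change 0.03, SE 0.10, interval -0.16 to 0.22, authors' deposited table). Adam10, which cuts Notch receptors and cadherins, stood at 13.3 and 12.7 FPKM (DESeq2 log2 fold change -0.07, SE 0.08, interval -0.22 to 0.08) in CDAA and CDAA_PTS of the authors' deposited table. Adam17, which releases tumour necrosis factor and ligands of the EGF receptor, stood at 10.2 and 10.7 FPKM (DESeq2 log2 fold change 0.05, SE 0.10, interval -0.14 to 0.24) in the same order per the authors' deposited table. These are the narrowest intervals of the set, and the edgeR adjusted p were 0.96, 0.84 and 0.92 per the authors' deposited table.

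The less abundant ADAMs had values on both sides of 0. Adam4, known from the testis of mice, stood at 1.03 FPKM in CDAA and 1.65 FPKM in CDAA_PTS, and its edgeR log2 fold change of 0.67 did not pass (adjusted p 0.089; DESeq2 0.50, SE 0.18, adjusted p 0.096) per the authors' deposited table. It was the largest positive value among genes with a mean of at least 1 CPM. Adam15 stood at 5.90 and 7.37 FPKM (edgeR log2 fold change 0.31, adjusted p 0.21) in CDAA and CDAA_PTS of the authors' deposited table. Adam22, a form without protease activity known from nerve cells, stood at 1.34 and 0.938 FPKM (edgeR log2 fold change -0.70, adjusted p 0.27) in the same order per the authors' deposited table. Adam8, made by leukocytes, stood at 1.76 and 1.22 FPKM (edgeR log2 fold change -0.45, adjusted p 0.49) in CDAA and CDAA_PTS of the authors' deposited table. Adam11 and Adam23, both without protease activity, stood at edgeR log2 fold changes of -0.09 and -0.18 per the authors' deposited table. Adam1a, Adam12, Adam19 and Adam33 lay between -0.20 and 0.07 in edgeR of the authors' deposited table.

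Of the 17 ADAMTS proteases, 1 fell, none rose and 16 did not pass per the authors' deposited table. Above 0 lay 12 of the 17, beside 7715 of all 15115 genes, and the median edgeR log2 fold change was 0.19, per the authors' deposited table. At an unadjusted edgeR p under 0.05, 1 was higher and 1 lower (11.8% together, against 14.6% of all genes). Whether the direction differs from that of the MMPs was not tested. Adamts6 (ENSRNOG00000012655, chromosome 2, 34374157 to 34586755) stood at 3.78 FPKM in CDAA and 2.36 FPKM in CDAA_PTS of the authors' deposited table. It fell by 0.65 in edgeR (adjusted p 0.010), with a DESeq2 value of -0.56, an SE of 0.15 and an adjusted p of 0.010, per the authors' deposited table. Cuffdiff gave -0.68 without a call (q 0.075) per the authors' deposited table. Adamts10, the closest relative of Adamts6 and linked to fibrillin microfibrils, stood at 9.92 and 11.1 FPKM (edgeR log2 fold change 0.19, adjusted p 0.43) in CDAA and CDAA_PTS of the authors' deposited table. Whether the pair differed in response was not tested; their DESeq2 intervals were -0.85 to -0.26 for Adamts6 and -0.01 to 0.38 for Adamts10 per the authors' deposited table.

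The procollagen N-proteinases remove a propeptide from fibrillar procollagens. Adamts2, the most abundant of them, stood at 9.003 FPKM in CDAA and 8.42 FPKM in CDAA_PTS (edgeR log2 fold change -0.07, adjusted p 0.96, authors' deposited table). Adamts3 and Adamts14 stood at edgeR log2 fold changes of 0.40 and 0.05 (adjusted p 0.62 and 1.00) per the authors' deposited table. The proteoglycan-cutting Adamts1, Adamts4, Adamts5, Adamts8, Adamts9 and Adamts15 ranged from -0.11 for Adamts1 to 0.49 for Adamts5, and none passed, in edgeR of the authors' deposited table. Adamts5 stood at 1.13 FPKM in CDAA and 1.52 FPKM in CDAA_PTS (adjusted p 0.63, authors' deposited table).

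Adamts12 stood at 2.73 FPKM in CDAA and 3.26 FPKM in CDAA_PTS, with an edgeR log2 fold change of 0.25 and an unadjusted p of 0.047 that did not hold after adjustment (0.33), per the authors' deposited table. Adamts7, a relative of Adamts12, stood at 2.51 and 1.93 FPKM (edgeR log2 fold change -0.35, adjusted p 0.36) in CDAA and CDAA_PTS of the authors' deposited table. Adamts13, the protease of von Willebrand factor that stellate cells make in liver, had an edgeR log2 fold change of 0.06 (adjusted p 0.94) per the authors' deposited table. Its FPKM, 11.9 in CDAA and 11.4 in CDAA_PTS of the authors' deposited table, is that of a Cuffdiff locus shared with Cacfd1, so it is not the level of Adamts13 alone. Adamts16, Adamts17 and Adamts19 were low, at 0.0990 to 0.261 FPKM over both groups, and stood at 0.05, 0.68 and 0.41 in edgeR (adjusted p 1, 0.61 and 0.62) of the authors' deposited table.

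The ADAMTS-like genes did not pass in any of 5 cases, by any of the 3 tools or at an unadjusted edgeR p under 0.05. Adamtsl2, which binds fibrillin and a latent TGF beta binding protein, was the highest of all 55, at 29.1 FPKM in CDAA and 38.9 FPKM in CDAA_PTS of the authors' deposited table. Its edgeR log2 fold change was 0.37 (adjusted p 0.52), the DESeq2 interval ran from -0.08 to 0.63 and Cuffdiff gave a q of 0.080 per the authors' deposited table. Adamtsl4, a microfibril-associated protein, stood at 8.91 and 9.01 FPKM, with an edgeR log2 fold change of -0.01 and a Cuffdiff value of 0.02, in CDAA and CDAA_PTS of the authors' deposited table. Adamtsl1, Adamtsl3 and Adamtsl5 stood at -0.13, 0.13 and -0.21 in edgeR (adjusted p 0.96, 0.88 and 0.96) of the authors' deposited table.

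**Figure D4:**
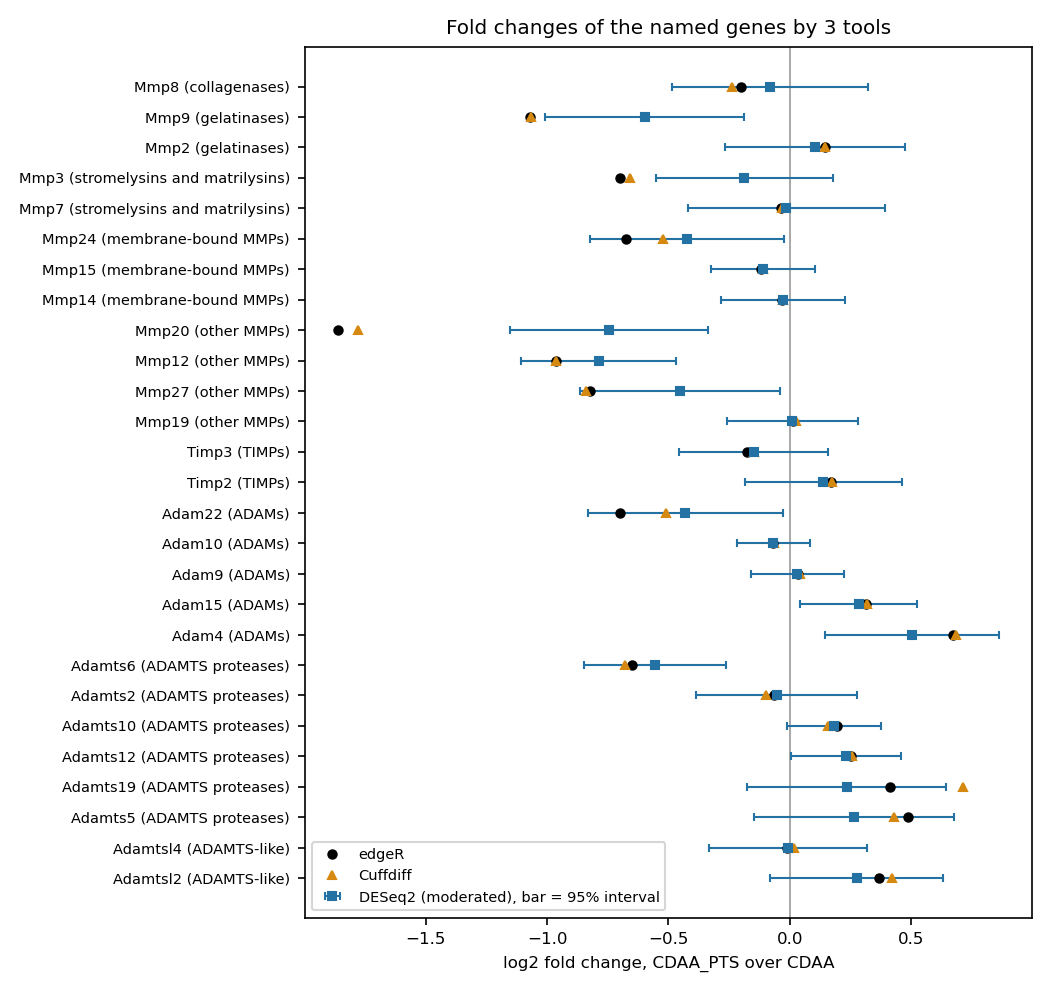
Log2 fold changes (CDAA_PTS over CDAA) of the 27 genes given in full, by class; circles are edgeR, triangles Cuffdiff, and squares the moderated DESeq2 value with its 95% interval. The tools lie close together for abundant genes such as Mmp14 and Adam9, and DESeq2 lies nearer 0 for genes of low counts such as Mmp20 (-0.74 against -1.86 in edgeR). DESeq2 also lies nearer 0 for Mmp27 (-0.45 against -0.82 in edgeR), at a mean of 21.4 CPM.

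The 3 tools gave most of the 55 genes the same sign. DESeq2 and edgeR had the same sign for all 55, and Cuffdiff and edgeR for 51, per the authors' deposited table. The other 4 were Adamts13, Adamts16, Adamtsl4 and Mmp28, none further from 0 than 0.08 in edgeR of the authors' deposited table. DESeq2 gives no adjusted p for 9 of the 55, all under a mean of 1 CPM, and Cuffdiff did not test 18, per the authors' deposited table.

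The plasminogen system feeds plasmin, an activator of several pro-MMPs, and its list of 13 genes had 12 measured. Of these 1 fell, none rose and 11 did not pass, with a median edgeR log2 fold change of -0.17, per the authors' deposited table. The one that fell was S100a10, the partner of annexin A2 in binding plasminogen to the cell surface, at 92.0 FPKM in CDAA and 60.6 FPKM in CDAA_PTS (edgeR log2 fold change -0.61, adjusted p 0.034, authors' deposited table). The abundant liver products Plg, F12 and Serpinf2 stood at 0.24, 0.02 and 0.18 (edgeR adjusted p 0.55, 1 and 0.69) per the authors' deposited table. At an unadjusted edgeR p under 0.05, 6 of the 12 were lower (50%, against 7.86% of all genes) and none higher per the authors' deposited table.

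Of 22 measured genes for other matrix proteases and their inhibitors, 1 rose, 1 fell and 20 did not pass, with a median edgeR log2 fold change of 0.03, per the authors' deposited table. Pcsk5, a proprotein convertase, rose by 0.65 in edgeR (adjusted p 0.00038), from 2.41 FPKM in CDAA to 3.80 FPKM in CDAA_PTS, per the authors' deposited table. Cstb, an inhibitor of lysosomal cathepsins, fell by 0.41 in edgeR (adjusted p 0.018), from 68.0 to 51.3 FPKM, per the authors' deposited table. The cathepsins Ctsl, Ctsb and Ctsd stood at 0.07, -0.003 and -0.23 in edgeR (adjusted p 0.92, 1 and 0.28), and DESeq2 called Ctsd lower (-0.22, SE 0.07, adjusted p 0.034), per the authors' deposited table.

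ADAM partners and substrates numbered 29 measured, of which 1 fell and 28 did not pass, with a median edgeR log2 fold change of 0.05, per the authors' deposited table. Rhbdf1, an inactive rhomboid protein that helps carry Adam17 to the cell surface, fell by 0.54 in edgeR (adjusted p 0.015), from 5.43 FPKM in CDAA to 3.67 FPKM in CDAA_PTS, per the authors' deposited table. Egfr, App and Lrp1, the most abundant of the list, stood at 0.42, 0.12 and 0.11 in edgeR (adjusted p 0.27, 0.84 and 0.79) of the authors' deposited table. Tnf, Areg and Ereg were not analysed here.

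Among 23 measured matrix substrates, 1 rose and 22 did not pass, with 18 above 0 and a median edgeR log2 fold change of 0.16, per the authors' deposited table. The one that rose was Eln, elastin, a substrate of Mmp12, at 1.97 FPKM in CDAA and 4.50 FPKM in CDAA_PTS of the authors' deposited table. Its edgeR log2 fold change was 1.25 (adjusted p 0.0085), with a DESeq2 value of 0.79 and an SE of 0.20, per the authors' deposited table. Vtn, Fn1 and Col3a1 stood at 0.01, -0.05 and 0.04 in edgeR (adjusted p 1, 0.95 and 0.98) of the authors' deposited table. Of 9 measured stellate cell and myofibroblast markers none passed by any of the 3 tools or at an unadjusted edgeR p under 0.05, with a median edgeR log2 fold change of 0.15 and summed levels of 259 FPKM in CDAA and 260.1 FPKM in CDAA_PTS, per the authors' deposited table. DESeq2 gave 1 of these 9 no adjusted p.

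The labelled tissue was checked on 6 hepatocyte markers, none of which passed by any tool, with 1 (Apoa1, lower) at an unadjusted edgeR p under 0.05. DESeq2 gave 1 of the 6 no adjusted p, and Cuffdiff did not test 1. Alb had the highest mean CPM of the authors' deposited table, yet its FPKM is listed at 0 in both groups, so an FPKM value there can fail for a gene that is expressed. None of the 55 genes is listed at 0. Endothelial, cholangiocyte and T cell markers (5, 5 and 4 measured) held no edgeR call, with 1 endothelial marker (Kdr, higher) at an unadjusted p under 0.05 and 1 cholangiocyte marker (Sox9) called by Cuffdiff, per the authors' deposited table.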

How the data were processed

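The data are one comparison table that the authors made from liver RNA-seq of 8 rats, 4 per diet, with libraries from an Illumina TruSeq kit on Trizol-extracted total RNA, per the labels' protocols. The submitters' processing notes name TopHat2, Cufflinks, edgeR, DESeq2 and FastQC, with no version, and the build rn6. The counting tool, strand setting, model design and filters used were not given in the sources used here. Per the file headers, the authors' DESeq2 block holds a signal (mean counts over all libraries after division by size factors), a log2 fold change moderated toward 0 with its standard error, a Wald score, and raw and adjusted p-values. The authors' edgeR block gives the mean CPM of all libraries on a log2 scale, a log2 fold change, and raw and adjusted p-values. The deposited Cuffdiff block gives an FPKM value for each group, the log2 of their ratio, and a test score with its p-value and q-value.

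No value per rat was analysed here, so no model was fitted and depth per library is unknown. The only measure of precision is the standard error of the authors' DESeq2 block, which belongs to its moderated log2 fold change. The mean normalized counts of the deposited table sum to 1.39e+07. A gene was called at an adjusted p under 0.05 in the authors' edgeR block, taken over all 15115 genes, with the authors' DESeq2 and Cuffdiff values tried in its place. Intervals are 95% normal intervals from the authors' DESeq2 log2 fold change and its standard error. They describe the moderated value and need not cover the edgeR value, as for Mmp20 (-1.15 to -0.34, against -1.86 in edgeR). A small standard error there need not mean a well-measured gene. It was 0.19 for Mmp3 at a mean normalized count of 4.37, and 0.21 for Mmp27 at 295. Adjusted p-values after a filter on mean CPM (at least 1 or 10) were computed with the Benjamini-Hochberg method in Python 3.11.15, tested on simulated p-values. An adjusted p missing in the authors' DESeq2 block was kept missing, and a gene that Cuffdiff did not test was counted as untested. Missing values in the authors' DESeq2 block do not distinguish low counts from outlying libraries.

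The 55 genes, the companion lists and the cell type markers were chosen with earlier results of these data known. Genes given in full had an unadjusted p in the authors' edgeR block under 0.05, or were among the 2 with the highest mean CPM in their class, or among the 3 largest rises or falls at a mean of at least 1 CPM. This rule took 27 genes. Promoter windows are those of RefSeq on GRCr8, matched by symbol, while loci are those of the authors' Cuffdiff block on rn6. A Cuffdiff locus can span several genes.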

Additional observations from a re-analysis of the deposited data

How the results depend on the processing

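The number of genes called (3, all lower, none higher) was most open to the threshold. At an adjusted p under 0.1 it was 5, with Mmp9 added to the lower genes and Adam4 as 1 higher gene, and at 0.01 it was 1, Mmp12. It was 3 in the authors' DESeq2 block, 2 in Cuffdiff, 4 with genes under a mean of 1 CPM left out and 2 with those under 10 CPM left out, where Mmp20 was not tested. Of the values tried for the 27 named genes, the only one that changed sign was Adamtsl4, at 0.016 in Cuffdiff, 0.016 with 0.1 added to each FPKM and 0.014 with 1 added, against -0.009 in edgeR; the cause was not tested. Mmp20 stood at -1.36 with 0.1 added to each FPKM and -0.46 with 1 added; the amount of 1 exceeds its level in both groups. Cuffdiff ended the call of Adamts6 and added one of Mmp27. The median of the 55 genes ran from -0.02 to -0.06 over the alternatives. Centring on the median of all genes moved each value by 0.006. No paired analysis was possible because the deposited table holds no value per rat, and for the same reason leaving out each rat and another normalization of counts were not run.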

Other observations

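Several genes of the companion lists were called by Cuffdiff alone in the authors' deposited table, and are named here after their values were seen. The proteoglycan Dcn stood at 21.7 and 32.4 FPKM (edgeR log2 fold change 0.57, adjusted p 0.23; Cuffdiff q 0.0019) in CDAA and CDAA_PTS of the authors' deposited table. Lum, another small proteoglycan that binds collagen, stood at 0.433 and 2.20 FPKM in the same order, with an edgeR log2 fold change of 2.34 (adjusted p 0.053), no adjusted p in DESeq2 and a Cuffdiff q of 0.0019, per the authors' deposited table. Rhbdf2, the relative of Rhbdf1, stood at 5.51 and 3.86 FPKM (edgeR log2 fold change -0.54, adjusted p 0.12; Cuffdiff q 0.021), per the authors' deposited table. With Mmp27, these are cases in which the tools differ on the call and not on the sign, and the cause was not tested.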
